A study of Mus musculus with 5 samples.

Results

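The genes described here are 7 that mark the identity of large peritoneal macrophages: Gata6, Prg4, Alox15, Saa3, Garnl3, Rarb and Cd9. They were taken by name from 19938 genes that a single-symbol probe set measured, and each of the 7 had 1 such probe set. The 7 genes were selected on their levels and T2 slopes on these same arrays, so their values are given as a description, with no test.

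CD45+ leukocytes of the pancreas were collected by FACS from 5 female WT NOD mice of 10 weeks, a strain prone to autoimmune diabetes, and the RNA of each mouse went on 1 array. Magnetic resonance imaging had given each mouse a T2 value, a relaxation time of the tissue, of 28.98 ms for mouse 5, 30.02 ms for mouse 4, 32.77 ms for mouse 3, 35.24 ms for mouse 2 and 35.3 ms for mouse 1. The mice form 1 group with no control strain. The sort took leukocytes of every kind, and the arrays analysed here hold no sample of the peritoneal cavity and no sorted macrophages.

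Large peritoneal macrophages are the main resident macrophages of the abdominal cavity of the mouse. Their identity depends on the zinc finger factor GATA6, whose expression is kept up by retinoic acid. Loss of Gata6 from mouse myeloid cells takes away much of their particular gene programme. Retinoic acid acts through receptors of the RAR and RXR families, which bind repeats of a short hexamer in DNA, and the gene of the receptor RARB is a textbook target of the hormone.

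RefSeq promoter windows (GRCm38.p6, 250 bases before to 50 after a transcript start) were matched by symbol for Saa3, Garnl3, Rarb and Cd9. Windows are shown for the 3 of these genes that held a motif linked to GATA6 or to retinoic acid receptors. The promoters of Gata6, Prg4 and Alox15 are not described here. Capitals mark matches on both strands to GATA words, which were AGATAA or its form AGATAG, or the word TGATAA or its form TGATAG, and to retinoid hexamers, which were AGGTCA or its form AGTTCA, or the word GGGTCA or its form GGTTCA.
Rarb, chr14:16575427-16575726, minus strand: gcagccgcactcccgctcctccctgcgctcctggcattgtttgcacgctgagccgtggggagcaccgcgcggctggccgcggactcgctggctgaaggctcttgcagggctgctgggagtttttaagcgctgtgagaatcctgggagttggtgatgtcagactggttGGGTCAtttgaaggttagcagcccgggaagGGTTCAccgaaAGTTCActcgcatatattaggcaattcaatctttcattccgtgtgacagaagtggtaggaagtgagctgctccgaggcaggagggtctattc
Saa3, chr7:46715627-46715926, minus strand: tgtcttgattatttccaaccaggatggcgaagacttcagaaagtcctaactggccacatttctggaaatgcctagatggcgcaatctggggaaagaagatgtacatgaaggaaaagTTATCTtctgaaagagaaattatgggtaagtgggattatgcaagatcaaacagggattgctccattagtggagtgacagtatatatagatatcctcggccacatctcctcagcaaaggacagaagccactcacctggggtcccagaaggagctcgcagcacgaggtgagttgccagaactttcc
Garnl3, chr2:33131387-33131686, minus strand, the upstream one of 2 windows: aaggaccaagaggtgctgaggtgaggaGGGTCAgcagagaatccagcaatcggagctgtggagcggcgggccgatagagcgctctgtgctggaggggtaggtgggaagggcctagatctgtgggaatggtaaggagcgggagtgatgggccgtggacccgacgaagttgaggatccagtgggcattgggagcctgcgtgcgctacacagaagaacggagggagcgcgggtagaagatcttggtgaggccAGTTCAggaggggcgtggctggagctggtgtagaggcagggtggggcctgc

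The Rarb window held 3 retinoid hexamers, and 2 of them formed a direct repeat spaced by 5 bases, from position -53 to -37 relative to the start. Such a repeat of any of the hexamers was found in 32 of 32851 RefSeq promoter windows, or 0.0974%. The Saa3 window held 1 GATA word, AGATAA read on the other strand, from -134 to -129, and 29.8% of all windows held a GATA word. The Garnl3 window shown held 2 hexamers apart from each other, where 43.7% of all windows held at least 1. The other Garnl3 window and that of Cd9 had no match. The hexamers of the repeat are counted among the single ones too, and a match is a run of letters, not a measured site.

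Arrays were close in overall signal, with median intensities between 23.8 and 24.5 on the linear scale of the deposited values. Ptprc, which encodes CD45, had log2 intensities of 11.10, 11.01, 10.94, 11.05 and 11.20 in mice 5, 4, 3, 2 and 1. The RNA of the sorted antigen was thus near even across the mice. Of the 7 identity genes, 6 had a mean log2 intensity of at least 6, the filter that 6603 genes passed, and Rarb did not. In sorted cells of mixed type, fewer cells of a type and less RNA per cell cannot be told apart.

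Gata6, the lineage factor itself, had intensities of 166, 252, 139.8, 116 and 87.6 in mice 5, 4, 3, 2 and 1. Mouse 4 was the highest and mouse 1 the lowest, so the level did not follow T2 strictly at its low end. Its slope was -0.16 ± 0.056 log2 per ms (SE, n = 5), a fitted ratio of 2.06 for the lowest T2 over the highest. Without mouse 5 the slope was -0.25, and without mouse 4 it was -0.12. Of 5 other GATA factors only Gata3, the family member of T cells, passed the filter. Its log2 values were 6.98, 6.98, 6.98, 7.20 and 6.88 in mice 5, 4, 3, 2 and 1, with no order by T2, and Gata1, Gata2, Gata4 and Gata5 had means between 3.92 and 4.93.

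Rarb, the retinoic acid receptor beta, was the one member under the filter. Its intensities were 36.5, 30.8, 30.4, 30.4 and 30.4 in mice 5, 4, 3, 2 and 1, equal in 3 of the mice. Its mean lay above 51.9% of all named genes, near the middle of the whole array. The slope of -0.03 ± 0.015 came to -0.0027 without mouse 5, so it rested on that mouse. These values give no clear level of Rarb in the sorted cells. Whether Rarb marks large peritoneal macrophages cannot be read from a mixed sort at this signal.

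Genes of the retinoid pathway around both genes mostly had small slopes. Of 17 measured genes for retinoid receptors, enzymes, binding proteins and the regulator Wt1, 6 passed the filter. The receptors Rara, Rarg, Rxra and Rxrb had slopes between -0.01 and 0.005. Rarg read 6.70 on all 5 arrays and Rxrb was equal on 3, so these values say little about evenness. Of genes tested, 38.2% had equal values on 3 or more arrays. Aldh1a2, an enzyme that makes retinoic acid, lay under the filter, with log2 values of 5.38, 5.28, 5.38, 4.66 and 5.21 in mice 5, 4, 3, 2 and 1. Cyp26a1, which breaks retinoic acid down, had a mean of 4.57 and a slope of -0.12 ± 0.053. Dhrs3, a reductase that turns retinaldehyde back to retinol, was the one gene of the pathway past the filter with a fitted ratio of at least 2. Its log2 values were 8.35, 8.43, 7.94, 7.45 and 7.20 in mice 5, 4, 3, 2 and 1, and its slope was -0.18 ± 0.026 (limma adjusted p = 0.333 over all genes tested).

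Alox15 encodes the mouse 12/15-lipoxygenase, which oxidises polyunsaturated fatty acids. Its intensities were 3240.3, 3257, 2197, 1421 and 897 in mice 5, 4, 3, 2 and 1. The mice of lowest T2 read nearly the same, and mouse 1 stood lowest. The slope was -0.26 ± 0.051, a fitted ratio of 3.09.

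Alox5, the 5-lipoxygenase of leukotriene synthesis, had log2 values of 7.74, 7.72, 7.35, 6.74 and 6.38 in the same order of mice and a slope of -0.20 ± 0.034 (limma adjusted p = 0.385). Its partner Alox5ap had a slope of -0.11 ± 0.050 (limma adjusted p = 0.828). Alox12, Alox12b, Alox12e, Alox8 and Aloxe3 lay under the filter, with means between 3.33 and 4.47. Eosinophils can carry Alox15 as well. All 6 of their measured genes lay under the filter, and their list mean did not pass 4.41 log2 in any mouse. Epx and Prg2, which define eosinophil granules, had means of 3.66 and 3.69, and Il5ra, the receptor chain for interleukin 5, had the highest mean, 5.89, and the largest slope, -0.06 ± 0.10.

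Prg4, which encodes the lubricating glycoprotein lubricin, had intensities of 2098, 1656, 1030.3, 814 and 527 in mice 5, 4, 3, 2 and 1. Each mouse of higher T2 read lower than the one before it, over a 3.98-fold range. The slope was -0.26 ± 0.040, a fitted ratio of 3.17. Prg4 is also known from mesothelium and synovial lining. All 11 mesothelial markers lay under the filter, with list means between 3.77 and 3.92 log2, and Msln and Upk3b, which define mesothelium, had means of 4.41 and 4.50. The 7 fibroblast and synovial genes lay under the filter too, with list means between 4.33 and 4.53.

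Saa3 encodes a serum amyloid A protein made outside the liver, by macrophages among other cells. Its intensities were 374, 359, 228, 106 and 98.4 in mice 5, 4, 3, 2 and 1. Mice 5 and 4 formed a high pair and mice 2 and 1 a low pair, with mouse 3 between them. The slope of -0.31 ± 0.034 was the steepest of the 7, a fitted ratio of 3.92. The related genes Saa1, Saa2 and Saa4 lay near the bottom of the scale, with means of 2.34, 2.62 and 3.01 and slopes between 0.005 and 0.04.

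Garnl3, a protein with a GTPase activator domain of the Rap type, had intensities of 166, 137, 82.8, 63.4 and 57.1 in mice 5, 4, 3, 2 and 1. The order followed T2 without a tie. Its log2 value was under 6 in mice 2 and 1, so its lower end lies near the filter. The slope was -0.23 ± 0.013, a fitted ratio of 2.76. Of 9 other genes of Rap and Ral GTPase activators and their subunits, 7 passed the filter and 0 had a fitted ratio of 2. Sipa1, which acts on Rap in lymphocytes, had the highest mean of them, 8.31, and Ralgapa2 had the largest slope, -0.05 ± 0.027.

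Cd9, a tetraspanin of the cell surface, had intensities of 435, 315, 304, 311 and 239.9 in mice 5, 4, 3, 2 and 1. Mice 4, 3 and 2 lay together, with mouse 5 above and mouse 1 below them. The slope of -0.08 ± 0.034 came to -0.04 without mouse 5. Cd9 is abundant in platelets. The platelet genes Gp9, Itga2b and Ppbp had means of 4.11, 4.65 and 3.23 and slopes between -0.0077 and 0.01, and Treml1 had 5.77 and -0.0089. Itgb3, integrin beta 3, was the one platelet gene past the filter, at 7.03 in mouse 5 and 6.99 in the other mice, and Pf4, platelet factor 4, had a mean of 4.29 and a slope of -0.10 ± 0.033. Whether platelet RNA has a part in the Cd9 values was not tested. Among 12 other tetraspanins, Cd53 had the highest mean, 11.56, and a slope of 0.0005 ± 0.0062, and Cd63 had the largest slope, -0.13 ± 0.063, at a mean of 3.65.

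**Figure D1:**
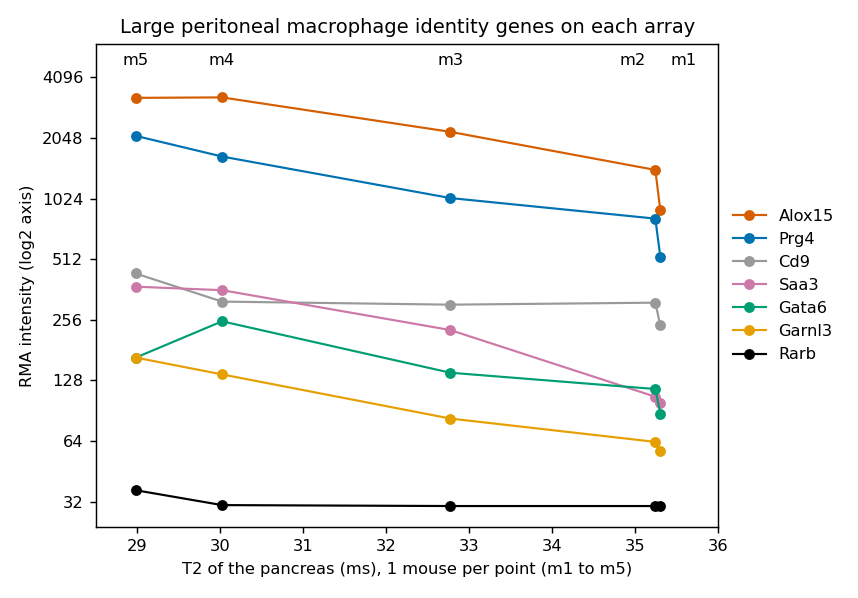
RMA intensity on a log2 axis (y) of the 7 identity genes against T2 in ms (x), with 1 point for each mouse and gene. Alox15, Prg4, Saa3 and Garnl3 are higher in mice 5 and 4 than in mice 2 and 1, Gata6 has its highest value of 252 in mouse 4, and Rarb stays between 30.4 and 36.5.

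Slopes were negative for 7 of the 7 genes and for 67.9% of the 6603 genes tested, with medians of -0.23 and -0.0074. A fitted ratio of at least 2 was reached by 5 of the 7 genes and by 1.06% of genes tested, and a range of at least 1 log2 by 5 of the 7 and by 2.92%. A slope of -0.3 or steeper was found for 1, Saa3, and for 0.0909% of genes tested. Ranked by range among the 6603 genes, Prg4 was 15, Saa3 18, Alox15 21, Garnl3 45, Gata6 49 and Cd9 314. These figures follow from how the genes were chosen.

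Of the 6 genes past the filter, 4 were highest in mouse 5, where 34.3% of genes tested were, and 2, Gata6 and Alox15, in mouse 4, where 18% were. All 6 were lowest in mouse 1, against 24.1% of genes tested. limma called 0 of 6603 genes at an adjusted p under 0.05 (0%), the 6 among them, and 349 at an unadjusted p under 0.05. With other settings it called 0 to 4 genes, with the member Garnl3 among them after quantile normalization.

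Ratios within an array cancel any scaling of the whole array. Over the 21 pairs of the 7 genes the log2 ratio had a median SD of 0.46 across the 5 mice, and a median of 0.32 over the 10 pairs without Rarb and Cd9. The steadiest pair was Prg4 over Alox15, with an SD of 0.18 and a slope of -0.0053 ± 0.036 log2 per ms. Centred on its mean, this ratio was 0.23, -0.12, -0.24, 0.05 and 0.09 in mice 5, 4, 3, 2 and 1, a 1.38-fold range. Prg4 over Garnl3 had an SD of 0.20. Saa3 over Cd9 varied most among pairs without Rarb, with an SD of 0.74 and a 3.34-fold range. Ratios to Rarb, which was nearly constant at low signal, repeat the spread of the other gene and are not described.

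Gata6 did not keep a fixed ratio to the other members. Gata6 over Prg4, centred on its mean, was -0.73, 0.21, 0.05, 0.12 and 0.34 in mice 5, 4, 3, 2 and 1. Mouse 5 stood apart on the low side, and the ratio spanned 2.10-fold. Gata6 over Alox15 gave -0.50, 0.09, -0.19, 0.17 and 0.43 in the same order of mice. Gata6 over Saa3 gave -0.68, -0.03, -0.22, 0.61 and 0.32, and mouse 5 was the lowest in each of these ratios. Mouse 5 had the highest Prg4, Garnl3, Saa3 and Cd9, while Gata6 was 1.51-fold higher in mouse 4 than in mouse 5. The T2 slope of log2 ratio Gata6/Prg4 was 0.10 ± 0.061, and without mouse 5 it was 0.0091.

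A further set of 26 genes known from large peritoneal macrophages was put together with earlier results of these data in view. Of these, 24 were measured by a probe set and 20 passed the filter. All 20 had negative slopes, with a median of -0.21, where 67.9% of genes tested were negative. A fitted ratio of at least 2 was reached by 15 of the 20 and by 1.06% of genes tested. limma called 0 of the 20, with adjusted p between 0.243 and 0.828. Of the 20, 17 had a negative slope at an unadjusted limma p under 0.05, against 4.59% of genes tested. The set was chosen with results of these same arrays known, so these counts can follow from that choice. They are given as a description, with no test against the genes tested, and are no independent support for the 7 members.

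Vsig4, the complement receptor CRIg, had log2 values between 8.07 in mouse 5 and 4.86 in mouse 1 and the largest slope of the set, -0.45 ± 0.074. Tgfb2, a TGF-beta ligand, read 7.73, 7.56, 6.76, 6.36 and 5.64 in mice 5, 4, 3, 2 and 1, lower at each step of T2 as Prg4 was. Serpinb2, an inhibitor of plasminogen activators, read 8.23, 8.66, 7.77, 7.25 and 6.40, with its highest value in mouse 4 as for Gata6. The slopes of Tgfb2 and Serpinb2 were -0.28 ± 0.046 and -0.27 ± 0.074. Thbs1, the matrix glycoprotein thrombospondin 1, had a slope of -0.32 ± 0.046, and Ltbp1, which binds latent TGF-beta, -0.29 ± 0.029. Slopes were -0.26 ± 0.050 for F5, coagulation factor V, -0.26 ± 0.046 for Ednrb, an endothelin receptor, and -0.26 ± 0.030 for C4b, a complement C4 gene.

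At the flat end of the set, slopes were -0.10 ± 0.064 for Hdc, which makes histamine, -0.10 ± 0.024 for the adhesion molecule Icam2, -0.07 ± 0.033 for the surface protein Cd93 and -0.05 ± 0.012 for the transcription factor Bhlhe40. Wnt2, Cav1, Aspa and Arg1 lay under the filter. Aspa, an aspartoacylase that depends on Gata6 in mouse peritoneal macrophages, read 4.26, 4.53, 4.22, 4.00 and 4.22 in mice 5, 4, 3, 2 and 1, a range of 0.53 log2 at low signal. Markers of other resident macrophages were mixed. Of 6 genes for connective tissue macrophages 1 passed the filter, Retnla, with a mean of 7.73, and Trem2, Mrc1, Lyve1, Cd163 and Folr2 had means of 5.46, 5.35, 4.09, 3.71 and 3.62. Of 6 genes for red pulp macrophages and Kupffer cells 3 passed, Cd5l, Hmox1 and Slc40a1, with means of 7.04, 6.50 and 6.17, and Cd5l had a slope of -0.30 ± 0.073. Of 4 microglial genes 1 passed, Siglech, with a mean of 6.01, and of 6 alveolar macrophage genes 0 did, Chil3 having the highest mean, 5.92. The part of these macrophages in the result was not tested.

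**Figure D2:**
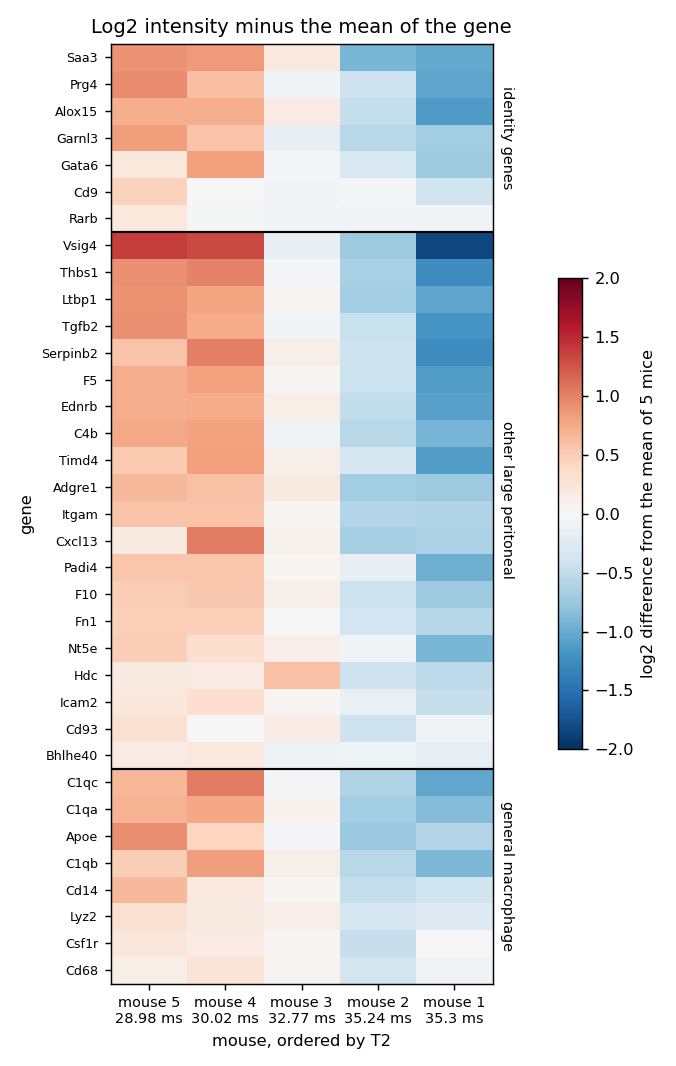
Heat map of log2 intensity minus the mean of the gene over 5 mice (colour) for the 7 identity genes, 20 other large peritoneal macrophage genes and 8 general macrophage genes (rows), with mice ordered by T2 (columns). Most rows run from higher in mice 5 and 4 to lower in mice 2 and 1, and Rarb, with a slope of -0.03, and Bhlhe40, with -0.05, are among the palest.

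Nearest profiles were sought among 6597 other genes past the filter, as the smallest root-mean-square difference between centred log2 values over the 5 arrays. Alox15 had the closest neighbour, Ednrb, at 0.029 log2, then F5 at 0.073 and the myelin protein gene Pmp22 at 0.093. The median over all candidates was 0.71. Genes tested had a median range of 0.27 log2, so the 0.71 mostly follows the spread of Alox15 itself. For Prg4 the nearest were Tgfb2 at 0.088, Plxdc2 at 0.12 and F5 at 0.14. For Gata6 they were Ptgis, the prostacyclin synthase, at 0.078, the syndecan Sdc3 at 0.091 and Fscn1, an actin-bundling protein, at 0.11. Saa3 lay nearest to Ltbp1 at 0.13, the complement receptor gene C3ar1 at 0.14 and C1qa, a chain of C1q, at 0.17. Garnl3 lay nearest to the matrix protein gene Ecm1 at 0.097, the endocytic scaffold gene Itsn1 at 0.14 and the lipoprotein gene Apoe at 0.14. All genes share the 5 arrays, so closeness carries no test.

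Mice 2 and 1 had nearly the same T2, so T2 hardly separates them. Alox15 was 1.58-fold, Prg4 1.55-fold, Gata6 1.32-fold and Cd9 1.30-fold higher in mouse 2 than in mouse 1. Garnl3 and Saa3 differed by 1.11-fold and 1.08-fold, and Rarb was equal. Thus 4 of the 7 were at least 0.25 log2 higher in mouse 2, against 6.18% of genes tested. Of the other large peritoneal macrophage genes, 13 of 20 were, with a median difference of 0.37, and 1, Cd93, was at least 0.25 log2 lower, where 11.8% of genes tested were. Among the 13, Vsig4, Tgfb2, Padi4 and Nt5e read under 6 log2 in mouse 1, at 4.86, 5.64, 5.71 and 5.83.

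General macrophage genes were split between these mice. Of 9 past the filter, 2 were at least 0.25 log2 higher in mouse 2 and 2 at least 0.25 log2 lower, with a median of -0.07. Adgre1, an adhesion receptor of macrophages that both lists hold, read 8.10 in mouse 2 and 8.08 in mouse 1. Csf1r, the receptor for macrophage colony-stimulating factor, read 8.82 in mouse 2 and 9.29 in mouse 1. With 1 mouse on each side the difference between the lists has no test.

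T cell genes were higher in mouse 2 than in mouse 1 as well, by 1.43 log2 for Cd8a, 1.02 for Cd4 and 0.82 for Cd3e, and by more than Alox15, Prg4, Gata6 and Cd9 were. Cd79a, a chain of the B cell receptor complex, had a difference of -0.63 (mouse 2 minus mouse 1), and 6 of 8 genes of small peritoneal macrophages, most of them of MHC class II presentation, were at least 0.25 log2 lower in mouse 2. The part of T and B cells in the result was not tested.

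Mast cell genes past the filter also read higher in mouse 2. All 4 past the filter, Cpa3, Mcpt4, Tpsb2 and Kit, were at least 0.25 log2 higher in mouse 2, and their mean was 6.99, 6.79, 6.73, 6.25 and 5.62 log2 in mice 5, 4, 3, 2 and 1. In mouse 1 all 4 lay under 6 log2, between 5.26 and 5.92. Cma1, a mast cell chymase under the filter, differed by -0.27 log2 (mouse 2 minus mouse 1), and Fcer1a, a chain of the IgE receptor, was 3.21 in both. The part of mast cells in the result was not tested. Acinar genes went the other way, with a mean of 7.32, 7.17, 7.08, 6.81 and 7.55 over the 4 past the filter, and Ctrb1, a chymotrypsinogen, had the highest mean of them, 8.19.

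**Figure D3:**
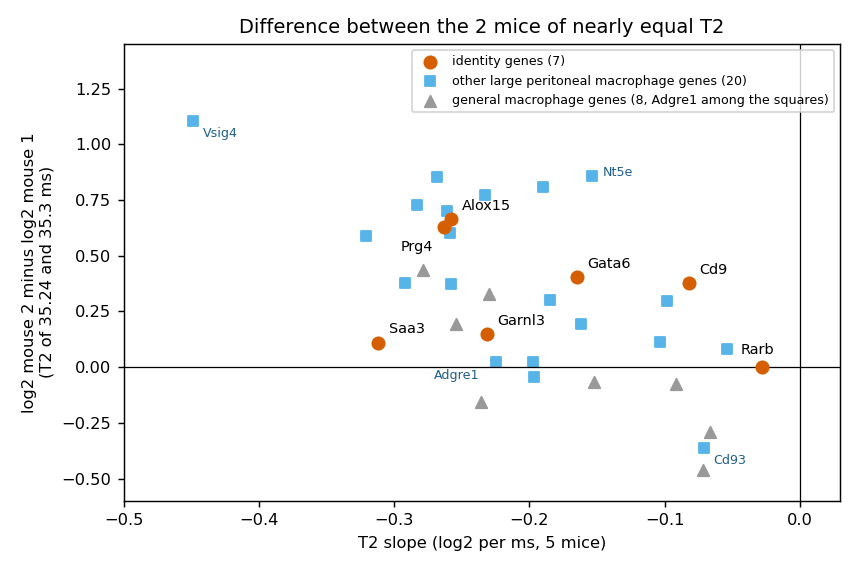
Log2 intensity of mouse 2 minus that of mouse 1 (y) against the T2 slope in log2 per ms over 5 mice (x), with 1 point for each gene. Alox15 and Prg4 lie at 0.66 and 0.63 among the other large peritoneal macrophage genes (squares), while general macrophage genes (triangles) spread around 0.

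Set against the mean of the 9 general macrophage genes on the same array, the genes past the filter parted. That mean was 9.34, 9.30, 8.87, 8.27 and 8.27 in mice 5, 4, 3, 2 and 1, with slopes of its genes between -0.28 ± 0.050 for C1qc, a chain of complement C1q, and -0.07 ± 0.025 for the lysosomal glycoprotein gene Cd68. Saa3 had the steepest ratio slope, -0.13 ± 0.022 log2 per ms, a 1.79-fold fitted ratio beyond that of the general genes. Prg4 had -0.08 ± 0.049, Alox15 -0.08 ± 0.050 and Garnl3 -0.05 ± 0.029. For Prg4 and Alox15 mouse 1 was the lowest, at -0.51 and -0.60 from the mean, and without that mouse the slopes were -0.04 and -0.02.

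The ratio of Gata6 to the general genes had a slope of 0.01 ± 0.053. Its sign turned when mouse 2 or mouse 5 was left out, at -0.02 and -0.05. It was highest in mouse 4, at 0.32, and lowest in mouse 5, at -0.31. Cd9 had a positive ratio slope of 0.10 ± 0.049, its own slope being flatter than that of the general genes. The ratio of Rarb repeats the slope of the general genes with the sign turned, since Rarb was nearly constant, and is no measure of Rarb.

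Genes of small peritoneal macrophages, the other macrophage class of the cavity, which carry MHC class II, had a list mean slope of -0.0089 ± 0.028 over 8 genes. The sort took leukocytes of every kind, so these genes do not single out that class. The mean over 9 dissociation stress genes was also higher in the mice of low T2, at 8.50, 8.08, 7.96, 7.69 and 7.69 log2 in mice 5, 4, 3, 2 and 1. This did not hold for each gene. Fos read 8.22 in mouse 4 and 8.35 in mouse 1, and Atf3 read 6.74 and 7.06. Junb and Ier2 were slightly lower in mouse 4 than in mouse 1 too. Only 1 of the 9 had a fitted ratio of at least 2. The heat shock gene Hspa1a had the largest slope among the 9, -0.38 ± 0.042 (limma adjusted p = 0.264), with 0 of the 9 called. Of the 9, 8 were highest in mouse 5, where 34.3% of genes tested were. The part of these genes in the result was not tested.

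**Figure D4:**
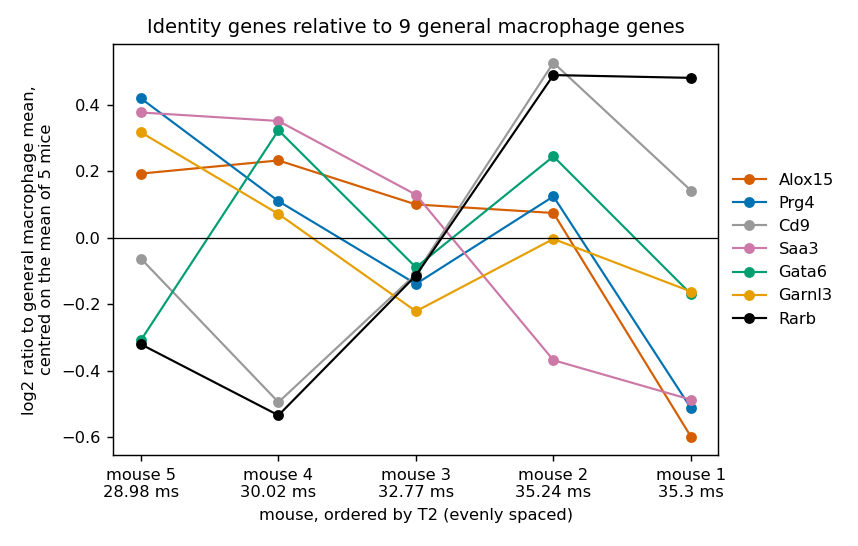
Log2 ratio of each identity gene to the mean of 9 general macrophage genes on the same array, centred on the mean of 5 mice (y), for the mice ordered by T2 and evenly spaced (x). Saa3 runs from 0.38 in mouse 5 to -0.49 in mouse 1, Gata6 peaks in mouse 4 at 0.32, and Cd9 lies highest in mouse 2, while the line of Rarb mirrors the general genes.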

How the data were processed

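Total RNA of sorted CD45+ cells from 5 mice was biotin labelled and hybridised, with 1 array for each mouse. The deposited values are linear intensities of probe sets. RMA and Affymetrix Power Tools are named in the submitters' processing notes, without versions, and a genome build was not given in the sources used here. The deposited intensities were turned to log2 here. Gene names came from GEO's platform annotation, in which 21789 of 35556 probe sets have 1 symbol, and the probe set of highest mean stood for a gene. All 7 member symbols matched RefSeq (GRCm38.p6).

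For the 6603 genes with a mean log2 of at least 6, limma 3.58.1 (lmFit and eBayes, in R 4.3.3) regressed log2 intensity on T2, with 3 residual degrees of freedom and Benjamini-Hochberg adjustment of two-sided p-values. Standard errors of gene slopes come from the fit without the filter, and those of ratios and list means from least squares. The number of arrays limits the precision. The fit was tested on simulated data. No batch, slide or date is labelled, so none could be tested.

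The members and gene lists were chosen with earlier results of these data known. Values are given for all 7 members, for the 8 steepest and 4 flattest other large peritoneal macrophage genes past the filter, for genes of highest mean or largest slope in further lists, and for 3 nearest profiles of each member with a range of at least 1 log2. Other genes were named after their values were seen.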

Additional observations from a re-analysis of the deposited data

Results flagged for a closer look

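Among 124 values examined (79 gene levels, 24 list means and 21 ratios between members), 1 mouse stood apart from the other 4 in 12, judged by its gap to the nearest mouse divided by the range over all 5. A gap share above 0.71 was flagged, which chance gives for about 1 in 20 independent values. The 124 values share genes and the 5 arrays, so the 12 cannot be set against that rate. Of the 12, 4 had equal values on 3 or more arrays.

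Of the ratios, Gata6 over Prg4 was low in mouse 5, at a log2 ratio of -3.66 against -2.88 to -2.59 in the other mice (gap share 0.726). Prg4 over Garnl3 was low in mouse 1, at 3.21 against 3.59 to 3.68 (0.813). Alox15 over Saa3 was high in mouse 2, at 3.74 against 3.12 to 3.27 (0.753). Rarb was the member whose level stood apart, at 5.19 in mouse 5 against 4.93 to 4.94 (0.941).

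Mouse 2 stood apart in H2-Eb1, an MHC class II chain, at 10.32 against 10.63 to 10.73 (0.756), in Ighm, the IgM heavy chain, at 7.53 against 8.16 to 8.30 (0.818), and in Spn, which encodes CD43, at 8.59 against 8.37 to 8.42 (0.786). Mouse 5 stood apart in Ralgapa2, at 7.12 against 6.62 to 6.71 (0.819), in Sst, somatostatin, at 4.71 against 5.19 to 5.28 (0.84), in Dcn, decorin, at 3.54 against 3.18 (1), and in Itgb3, integrin beta 3, at 7.03 against 6.99 (1). The mean of the platelet genes was low in mouse 1, at 4.70 against 4.86 to 4.90 (0.778).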

How the results depend on the processing

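The 7 member slopes were computed 77 times under alternatives, and all 77 values were negative. Leaving out each mouse in turn placed the slopes between -0.25 and -0.12 for Gata6, -0.31 and -0.22 for Prg4, -0.30 and -0.20 for Alox15, -0.35 and -0.29 for Saa3, -0.25 and -0.22 for Garnl3, -0.040 and -0.0027 for Rarb and -0.11 and -0.042 for Cd9. Rarb and Cd9 had their smallest slopes without mouse 5. Slopes of the ratio to general macrophage genes lay between -0.047 and 0.054 for Gata6, -0.14 and -0.044 for Prg4, -0.12 and -0.024 for Alox15, -0.15 and -0.12 for Saa3, -0.074 and -0.023 for Garnl3, 0.13 and 0.20 for Rarb and 0.059 and 0.16 for Cd9. The median of the other large peritoneal macrophage genes lay between -0.27 and -0.19, that of the members between -0.25 and -0.20, and the median SD of the 21 pair ratios between 0.38 and 0.53. With ranks of T2 spread over the same range, slopes were -0.32 for Prg4, -0.31 for Alox15, -0.36 for Saa3 and -0.27 for Garnl3, and adding 16 to the intensities gave -0.20 for Garnl3. At an adjusted p under 0.05, limma called 4 genes after quantile normalization, 4 with array weights and 3 at a mean log2 of at least 7. Of the members only Garnl3 was among them, after quantile normalization, and it had been selected on these same data. The count of genes with unadjusted p under 0.05 was 646 with no filter, 219 at a mean log2 of at least 7 and 600 with array weights, and between 284 and 659 without 1 mouse, with 659 without mouse 1 and 528 without mouse 4. Of 21 slopes of ratios between members, 16 kept their sign under each alternative. The counts of genes at least 0.25 log2 higher in mouse 2 than in mouse 1 were recomputed under 3 scalings chosen after seeing the data. For the members, the other large peritoneal macrophage genes and the general macrophage genes they were 4, 13 and 2 with quantile normalization or centred arrays, and 6, 15 and 3 relative to Ptprc. No paired analysis was possible because the mice form 1 group. Low signal limits Rarb, the lower values of Garnl3 and other genes that fell under 6 log2 in mouse 1. Vsig4, Tgfb2, Padi4, Nt5e, Cxcl13, Cd5l and the 4 mast cell genes past the filter were among these. The cause of the shifts was not tested.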

Other observations

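Cd5l, a secreted scavenger protein, stood in the list for red pulp macrophages and Kupffer cells. A mixed sort does not show which cells carried it. Its log2 values were 7.94, 7.88, 7.15, 6.67 and 5.58 in mice 5, 4, 3, 2 and 1. Mice 5 and 4 were close together and mouse 1 the lowest, an order shared with Prg4. The slope was -0.30 ± 0.073 log2 per ms, a fitted ratio of 3.79 for the lowest T2 over the highest (limma adjusted p = 0.601 over all genes tested). Clec4f, which defines Kupffer cells, stayed between 3.89 and 3.93, and Spic and Vcam1, genes of splenic red pulp macrophages, had means of 4.24 and 3.64.

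Retnla, a secreted protein of alternatively activated macrophages, read 8.55, 7.70, 7.90, 6.79 and 7.70 in mice 5, 4, 3, 2 and 1. Mouse 2 was its lowest, whereas mouse 1 was the lowest for Gata6, Prg4, Alox15, Saa3, Garnl3 and Cd9. Its slope was -0.16 ± 0.077 (limma adjusted p = 0.828). Genes of B-1 cells, lymphocytes of the peritoneal cavity, had a mean over 5 genes of 7.74, 7.43, 7.52, 7.25 and 7.77 in the same order of mice. Bhlhe41, Zbtb32 and Ighm were lowest in mouse 2, whereas Cd5 and Spn were highest there, at 8.50 and 8.59. The T cell genes Cd3e, Cd4 and Cd8a were highest in mouse 2 too, at 9.62, 8.80 and 9.21. Cd79a of B cells was lowest there, at 9.54. The part of T cells and other B cells in these values was not tested.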
